A study of Danio rerio with 19 samples.

Results

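Kruppel-like factor (KLF) genes were described across gametes and early embryos of the zebrafish. The members are all gene names in the RNA tables that begin with klf followed by a digit: 14 of the 14244 gene names, each with a single row. The series holds 19 samples of the Tubingen strain, 1 per group, and RNA sequencing covers 4 of them: sperm, egg, whole embryos of the 1k-cell stage, a mid-blastula, and whole embryos of the germ ring stage, the onset of gastrulation. None of the 4 groups carries a mutation or a treatment in the labels. The protocol given with the bisulfite samples released sperm by disrupting the testis and collected eggs by squeezing females; no purification of the gametes is stated for the RNA samples. Messenger RNA was purified by its poly(A) tail, and tail length was not measured.

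KLF proteins are transcription factors that bind GC-rich and CACCC sequences through zinc fingers at their C-terminal end, and differ mainly in the regions before the fingers, which recruit activators or repressors. In mammals klf2 and klf4 belong to the genes that maintain pluripotent cells, klf3, klf8 and klf12 recruit the corepressor CtBP, and klf9, klf11 and klf13 recruit the corepressor Sin3. In the zebrafish embryo klf2a, klf2b and klf17 act in the enveloping layer, the outer epithelium of the blastula, and in the ectoderm. The klf17 gene also acts in hatching gland and primitive red blood cell formation.

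Gene names were taken as the tables give them, and 2 of them need care. In RefSeq, klf4 is the current symbol of a gene formerly called klf4a, and is also an older name of the gene now called klf17. The tables hold both klf4 and klf4a, so the klf4 row is most likely klf17 and the klf4a row the current klf4; the tables give no identifier that settles this. The other 12 names are current RefSeq symbols.

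No group has a replicate, so each difference below compares single libraries, with no test and no estimate of the spread between animals. The unit is the authors' normalized read count, a gene's reads scaled by 1 factor per library. Totals ranged from 9241829 reads in egg to 24256918 at the 1k-cell stage, and 1 read was worth between 0.951 and 1.98 normalized counts. Intervals in square brackets are exact 95% intervals that cover counting error only. At a normalized count of 10 or more the sperm library held all 14 members, egg 11, the 1k-cell library 12 and germ ring 11, or 100%, 78.6%, 85.7% and 78.6% of them, where 86.5%, 67.7%, 71.1% and 73.4% of all gene names reached that level. In whole samples, fewer cells with a transcript and less of it per cell cannot be told apart. The library labelled sperm had 62611 normalized counts of tuba7l, a tubulin gene on the sperm and testis list, and egg had no read of it. The library labelled sperm also held oocyte transcripts. Of 14 oocyte and egg markers, 13 were at 10 or more there, beside 86.5% of all gene names. The count was also 13 in each of the other libraries. Of the 13 compared, 6 were at least 2-fold higher in egg than in sperm and 6 at least 2-fold lower, beside 14.3% and 61.3% of all genes. The oocyte claudin gene cldnd had 285730 in egg and 70404 in sperm, while the egg coat gene zp2.2 had 61.5 in egg and 20360.2 in sperm, and zar1, an oocyte gene needed for early development, had 322 and 36298. The globin gene hbaa1 had 34337 in sperm. Folds below are on the deposited scale unless another is named. Median-of-ratios and upper-quartile scaling raise egg against the other libraries, moving the all-gene median log2 ratio of 1k-cell to egg by -1.27 and -1.32 and that of egg to sperm by 1.24 and 1.04. Where egg is said not to differ from another library beyond counting error, that too is on the deposited scale.

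**Figure D1:**
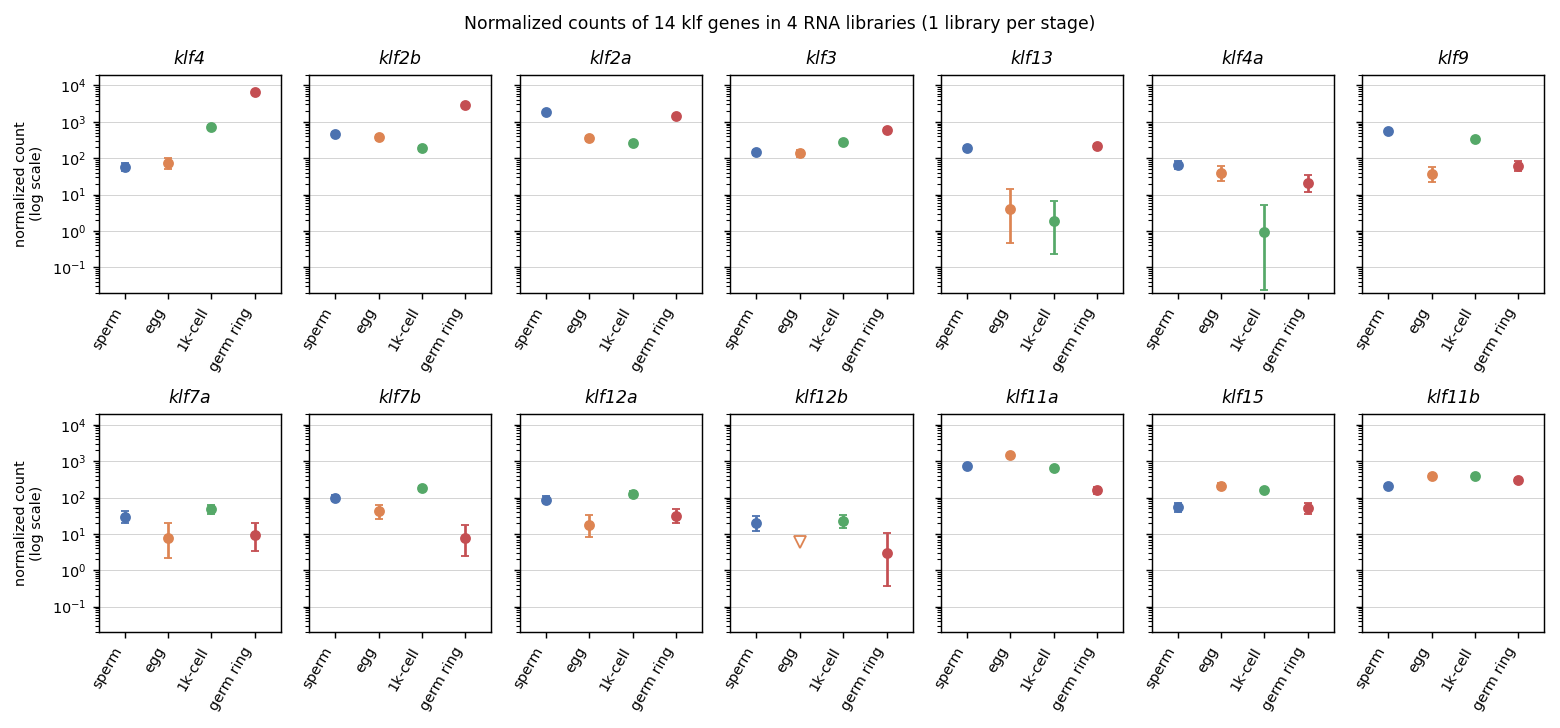
Normalized count (log axis) of each of the 14 klf genes in the 4 RNA libraries; points are single libraries, bars are exact 95% counting intervals, and the open triangle marks klf12b in egg, which had no read, at the value of 3 reads. The klf4 value runs from 57.6 in sperm to 6529.8 at the germ ring stage, and klf13 sits at 2 reads in both egg and 1k-cell embryos.

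The normalized count of the klf4 row was 57.6 in sperm, 73.4 in egg, 742 in 1k-cell embryos and 6529.8 at germ ring. Sperm and egg did not differ beyond counting error, and each later stage stood clear of the one before it. The germ ring library held 88.2% of the gene's summed normalized count over the 4 libraries, and between 88.3% and 90.5% under 3 other scalings. It was 10.1-fold higher at the 1k-cell stage than in egg [7.26 to 14.5], which is a log2 ratio of 3.32 that became 2.04 with median-of-ratios and 1.98 with upper-quartile scaling. It was 8.81-fold higher at the germ ring stage than at the 1k-cell stage [8.16 to 9.51]. Of the 14 members, klf4 alone was at least 2-fold higher at both steps under the deposited scaling and under the 3 others; klf3 also passed both as deposited. In zebrafish, klf17 is among the genes that depend on the maternal factor Pou5f1.

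The klf2b gene had 471 in sperm, 373 in egg, 186 in 1k-cell embryos and 2956 at germ ring. Its lowest library came immediately before its highest. At the germ ring stage it was 15.9-fold higher than at the 1k-cell stage [13.7 to 18.5] and 7.92-fold higher than in egg [6.82 to 9.25]. The 1k-cell value was 2.00-fold lower than in egg [the ratio lay between 0.407 and 0.613], which falls just within 2-fold once 1 is added to each value. It passed 2-fold lower on the 3 other scales, with log2 ratios of -2.28, -2.34 and -1.33 for median-of-ratios, upper quartile and equal totals.

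The klf2a gene, known in zebrafish for its response to blood flow in heart valve and vessel endothelium, had 1829.9 in sperm, 357 in egg, 257 in 1k-cell embryos and 1409 at germ ring. Among the 3 samples other than sperm its order was that of klf2b, with a smaller step from 1k-cell to germ ring of 5.49-fold [4.79 to 6.31]. Sperm was its highest library as deposited, by 1.30-fold over germ ring, and germ ring was highest under median-of-ratios scaling, which sets each library by the median ratio over genes read in all 4.

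The klf3 gene, a CtBP-dependent repressor in mammals, had 147 in sperm, 137 in egg, 288 in 1k-cell embryos and 615 at germ ring. Sperm and egg did not differ beyond counting error. The step from 1k-cell to germ ring was 2.13-fold [1.83 to 2.48]. The step from egg to 1k-cell was 2.10-fold as deposited [1.61 to 2.77], but median-of-ratios scaling turned its log2 ratio to -0.21 and upper-quartile scaling to -0.27. Equal totals gave 0.74, also under 2-fold.

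The klf13 gene, a Sin3-dependent repressor in mammals, had 188 in sperm, 3.97 in egg, 1.90 in 1k-cell embryos and 211 at germ ring. Egg and 1k-cell embryos held 2 reads each, so this gene was near the limit of detection in both. Germ ring was 111-fold higher than the 1k-cell stage over those 2 reads [30.1 to 925], and sperm and germ ring did not differ beyond counting error.

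The klf4a row, most likely the zebrafish counterpart of mammalian klf4, had 65.6 in sperm, 39.7 in egg, 0.951 (1 read) in 1k-cell embryos and 21.1 (14 reads) at germ ring. Sperm and egg, and egg and germ ring, did not differ beyond counting error. The 1k-cell library stood below the others, with a ratio to egg of 0.0240 [0.000578 to 0.150]. This is the opposite direction to klf4 over the same step.

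Of the 3 samples other than sperm, 5 members were highest at the 1k-cell stage: klf9, klf7a, klf7b, klf12a and klf12b. This grouping was made from their values and is a description. The klf9 gene, which responds to glucocorticoid and thyroid hormone in vertebrates, had 560.3 in sperm, 37.7 in egg, 332 in 1k-cell embryos and 61.8 at germ ring. It was 8.80-fold higher at the 1k-cell stage than in egg [5.55 to 14.8] and 5.37-fold lower at germ ring than at the 1k-cell stage [the ratio lay between 0.131 and 0.258]. Egg and germ ring did not differ beyond counting error for klf9.

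The klf7 genes are known from neurons, where zebrafish klf7a takes part in the regrowth of optic axons. The klf7b gene had 99.3 in sperm, 41.7 in egg, 181 in 1k-cell embryos and 7.53 (5 reads) at germ ring. The klf7a gene had 29.8, 7.94 (4 reads), 47.5 and 9.04 (6 reads) in the same order. Both were lower at germ ring than at the 1k-cell stage, klf7b by 24.0-fold and klf7a by 5.26-fold, with ratios between 0.0134 and 0.0990 and between 0.0666 and 0.444.

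The klf12 genes are CtBP-dependent repressors in mammals. The klf12a gene had 87.4 in sperm, 17.9 (9 reads) in egg, 125 in 1k-cell embryos and 31.6 at germ ring. The klf12b gene had 19.9, no read, 22.8 and 3.01 (2 reads). The 1k-cell stage was 6.97-fold higher than egg for klf12a [3.56 to 15.6]. For klf12b it was 3.83-fold higher against a floor of 3 reads in egg, and the exact interval had a lower limit of 2.88. Sperm was close behind for both: 1.42-fold lower than 1k-cell for klf12a, and not apart from it beyond counting error for klf12b.

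The klf11a gene, a repressor induced by TGF-beta in mammals, had 735 in sperm, 1510.4 in egg, 642 in 1k-cell embryos and 157 at germ ring. It was lower at each embryonic step: 2.35-fold from egg to 1k-cell [ratio between 0.383 and 0.472] and 4.10-fold from 1k-cell to germ ring [ratio between 0.197 and 0.301]. From egg to germ ring it was 9.64-fold lower. Egg was its highest library under all 4 scalings.

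The klf15 gene, a regulator of glucose and amino acid metabolism in mammals, had 54.6 in sperm, 206 in egg, 162 in 1k-cell embryos and 51.2 at germ ring. Egg and 1k-cell did not differ beyond counting error, nor did sperm and germ ring. The log2 ratio of 1k-cell to egg was -0.35 as deposited but -1.63 with median-of-ratios and -1.69 with upper-quartile scaling. From 1k-cell to germ ring it was 3.16-fold lower [ratio between 0.213 and 0.460].

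The klf11b gene had 207 in sperm, 397 in egg, 380.3 in 1k-cell embryos and 294 at germ ring. It stayed within 2-fold in all 4 comparisons as deposited. Its highest and lowest libraries, egg and sperm, were 1.92-fold apart [1.57 to 2.34]. It was more than 2-fold higher in egg than in sperm on the other scales, at log2 ratios of 2.201, 2.00 and 1.13 for median-of-ratios, upper quartile and equal totals. With median-of-ratios scaling its log2 ratio to egg was -1.34 in 1k-cell embryos and -1.19 at germ ring.

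**Figure D2:**
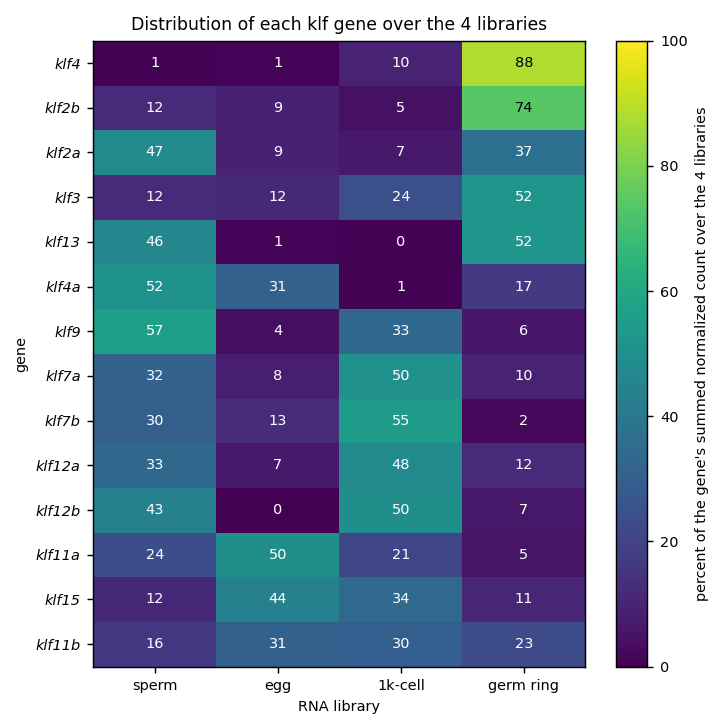
Percent of each gene's summed normalized count over the 4 libraries that falls in each library, with genes in rows and libraries in columns; each row sums to 100 and does not depend on transcript length. Germ ring holds 88.2% of klf4 and 74.2% of klf2b, the 1k-cell library 54.9% of klf7b, and egg 49.6% of klf11a.

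From the 1k-cell stage to germ ring, after the onset of transcription from the embryo's genome, the members split. Higher were klf4, klf2b, klf2a, klf3, klf13 and klf4a, and lower were klf9, klf7a, klf7b, klf12a, klf12b, klf11a and klf15. By the 2-fold mark 6 of 14 members were higher and 7 lower, and klf11b was within it. Over all 10917 genes compared, 16.0% passed the 2-fold mark upwards and 34.2% downwards. In either direction 13 of 14 members passed it, beside 50.1% of all genes. None of the 5 KLF genes under other names, described below, did so. The counting intervals reached within 2-fold for klf3 [1.83 to 2.48] and klf12b [ratio between 0.0151 and 0.532]. All 13 calls were the same when libraries were set by equal totals, the upper quartile or median-of-ratios. The members' log2 ratios ran from -4.41 for klf7b to 6.19 for klf13, with a median of -1.005 beside -0.43 over all genes, where median-of-ratios scaling moved the all-gene median by 0.52. The split over all genes was 1742 higher and 3732 lower as deposited, and 2562 and 2408 under median-of-ratios scaling.

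The step from egg to the 1k-cell stage covers cleavage up to the mid-blastula. Here 7 of 13 members at 10 or more in either library were at least 2-fold higher, beside 54.7% of all genes. Another 2, klf11a and klf4a, were at least 2-fold lower, beside 12.5%. In either direction this was 9 of 13 members, beside 67.2%. The higher members were klf3, klf4, klf7a, klf7b, klf9, klf12a and klf12b, of which klf3 and klf7b did not pass with median-of-ratios scaling (klf7b 0.82) or upper-quartile scaling (klf7b 0.76). With equal totals klf3 did not pass either, at 0.74. The klf12b call sets 24 reads against no read in egg. Its log2 ratio depended on the value added, at 4.57 with 1 and 2.48 with 5. The members' median log2 ratio was 1.07, the klf3 value, beside 1.24 over all genes. With klf13 included, the median of all 14 was 0.50. The 13 members ran from -4.38 for klf4a to 4.57 for klf12b, so the median does not describe them as a group. Relative to the median gene, klf4 was higher by 2.07 and klf9 by 1.86 on the log2 scale, while klf3 stood at -0.18 against that median. The highest and lowest against it were klf12b at 3.33, with no read in egg, and klf4a at -5.63, with 1 read at the 1k-cell stage. Median-of-ratios scaling moved the all-gene median by -1.27 and gave 5 members higher and 6 lower, and over all genes 3246 higher and 3683 lower where the deposited scale gave 5840 and 1338.

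In egg against sperm, 2 of 14 members, klf11a and klf15, were at least 2-fold higher in egg, beside 14.3% of all genes. Another 7 were at least 2-fold lower: klf2a, klf7a, klf7b, klf9, klf12a, klf12b and klf13, beside 61.3%. In either direction 9 of 14 members passed the mark, beside 75.6%. The klf13 ratio of egg to sperm was 0.0211 over 2 reads in egg [0.00254 to 0.0774]. The klf9 gene was 14.9-fold lower in egg. The klf12b gene was 3.34-fold lower there against a floor of 3 reads, and the exact interval of that fold had a lower limit of 2.47. The median log2 ratio was -0.97 for the members and -1.80 for all genes. Under median-of-ratios scaling, which moved the all-gene median by 1.24, 5 members were higher and 5 lower, and over all genes 3668 were higher and 5318 lower where the deposited scale gave 1777 and 7625. The klf7b log2 ratio turned from -1.23 to 0.01 there, and that of klf7a went from -1.78 to -0.61. The log2 ratios of klf2b, klf3 and klf4a, within 2-fold and below 0 as deposited, became 0.93, 1.16 and 0.53.

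Over the whole span from egg to germ ring, klf4 was 88.9-fold higher [64.4 to 126], followed by klf13 at 53.1-fold over 2 reads in egg [14.4 to 443], klf2b, klf3 at 4.49-fold and klf2a at 3.94-fold. These are 5 of 12 members at 10 or more in either library, beside 48.1% of all genes, and klf11a, klf7b and klf15 make 3 that were at least 2-fold lower, beside 19.8%. In either direction 8 of 12 passed, beside 67.8%. All 8 calls were the same under the 3 other scalings. The median log2 ratio was 0.74 for the 12 members and 0.88 for all genes. This comparison shares its egg library with the preceding ones and its germ ring library with the step from 1k-cell, so the comparisons are not independent. Median-of-ratios scaling moved the all-gene median by -0.75 and added 2 lower members, giving 5 higher and 5 lower of 13, and over all genes 3916 higher and 3615 lower where the deposited scale gave 5272 and 2167.

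**Figure D3:**
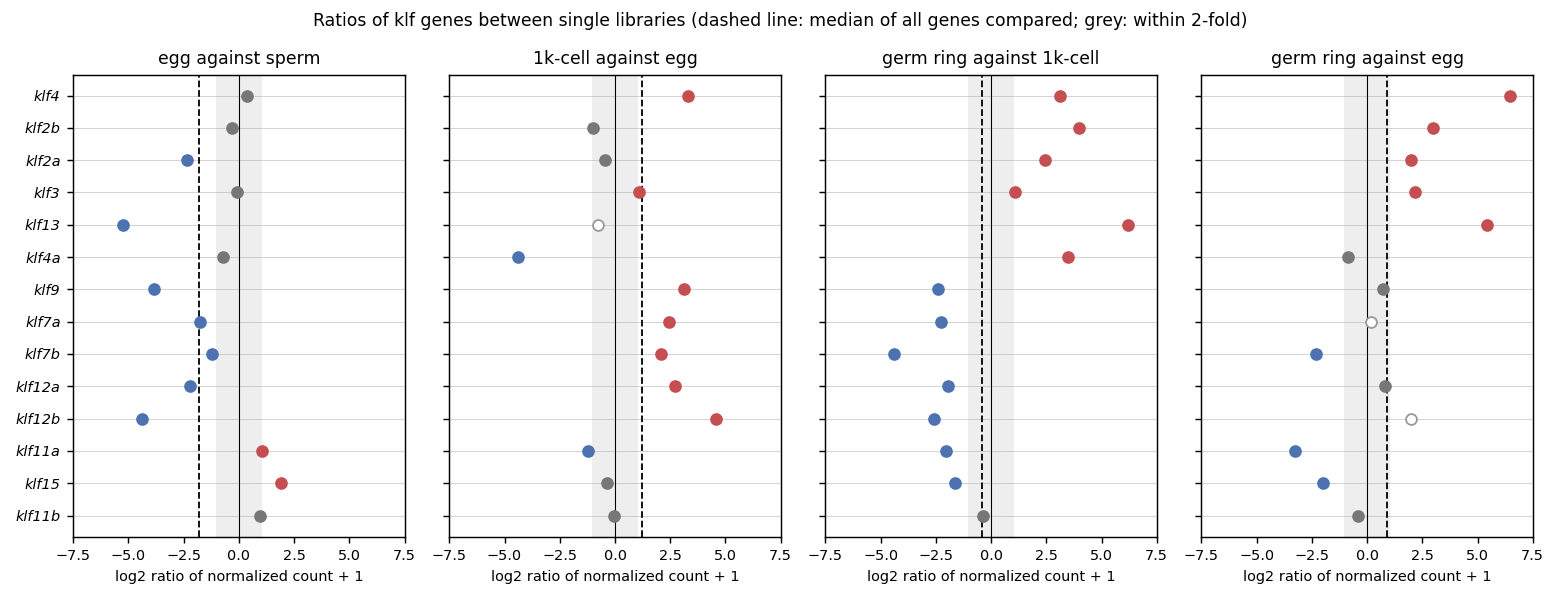
Log2 ratio of the normalized count plus 1 for each klf gene in the 4 comparisons; the grey band is within 2-fold, the dashed line is the median of all genes compared, red and blue points are at least 2-fold higher and lower, and open points are genes under 10 in both libraries. In germ ring against 1k-cell 13 of 14 points lie outside the grey band, 6 on the right and 7 on the left.

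The ratio of reads between a pair of genes in the same library does not depend on how libraries were scaled, and its change between libraries does not depend on transcript length. The klf2a to klf2b ratio was 3.89 in sperm [3.51 to 4.31], 0.957 in egg [0.776 to 1.18], 1.38 in 1k-cell embryos [1.14 to 1.66] and 0.477 at the germ ring stage [0.440 to 0.515]. The balance between these duplicates thus lay towards klf2a in sperm and towards klf2b at germ ring, relative to egg, and the 4 intervals overlapped only between egg and 1k-cell. Reads shared between near-identical stretches would move such a ratio, and how the authors assigned them is not given in the sources used here.

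For klf11a and klf11b the ratio was 3.56 in sperm [3.05 to 4.17] and 3.81 in egg [3.25 to 4.47], where the intervals overlapped. It was 1.69 at the 1k-cell stage [1.49 to 1.91] and 0.533 at the germ ring stage [0.416 to 0.680]. The klf11a share was therefore smaller at each later embryonic stage, beyond counting error.

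The klf7a to klf7b ratio was 0.300 in sperm [0.193 to 0.455], 0.190 in egg [0.0475 to 0.565] and 0.263 at the 1k-cell stage [0.189 to 0.361]. At germ ring it rests on 6 and 5 reads [0.305 to 4.97], an interval whose lower end reaches into those of the other 3. The klf12a to klf12b ratio was 4.40 in sperm, 5.46 at the 1k-cell stage and 10.5 over 2 reads of klf12b at germ ring, with overlapping intervals, and egg had 9 reads of klf12a and none of klf12b.

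The rows klf4 and klf4a had similar read numbers in sperm, 58 and 66. In egg they had 37 and 20. At the 1k-cell stage they had 780 and 1, and at germ ring 4334 and 14. The ratio was 0.879 in sperm [0.607 to 1.27], 1.85 in egg [1.05 to 3.36] and 310 at the germ ring stage [184 to 567].

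**Figure D4:**
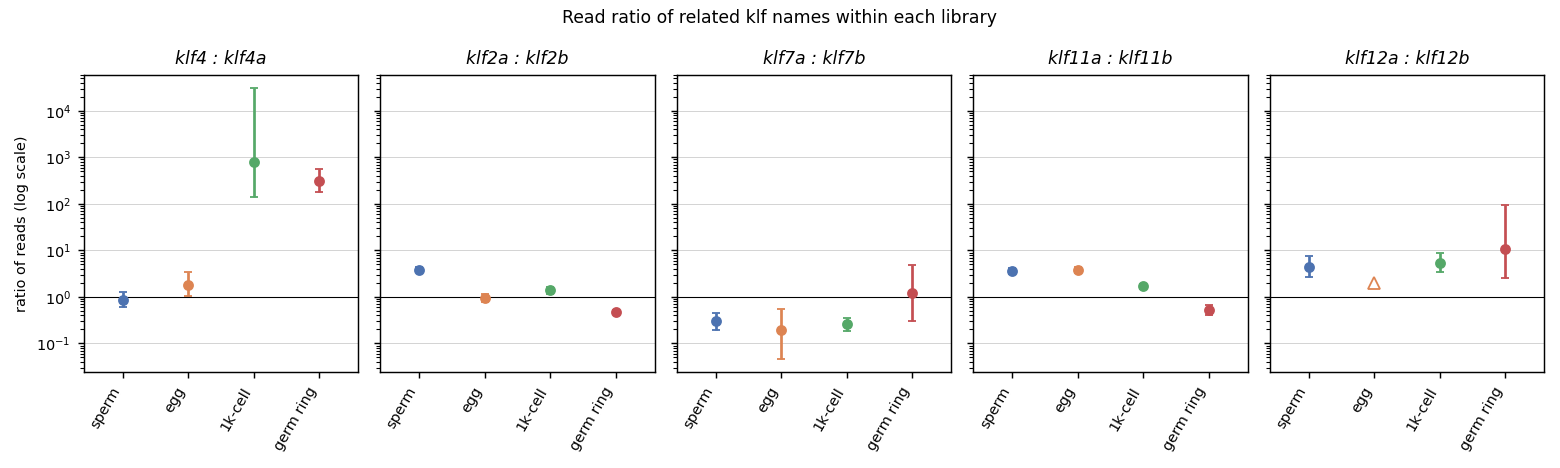
Ratio of reads (log axis) between related klf names in each library; bars are exact 95% counting intervals, the horizontal line marks equal reads, and the open triangle is the lower limit for klf12a over klf12b in egg, where klf12b had no read. The klf2a to klf2b ratio runs from 3.89 in sperm to 0.477 at germ ring, and klf11a to klf11b from 3.81 in egg to 0.533.

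The members together summed to 4552 normalized counts in sperm, 3203 in egg, 3367 in 1k-cell embryos and 12356 at germ ring. Germ ring was the highest library under all 4 scalings. Longer transcripts enter this sum with more reads, and 5 further KLF genes described below are not in it. At the 1k-cell stage klf6a had 2067, klf8 1938 and the gene once named klf14 or klf16 2842, beside 742 for klf4. The klf5l gene had 283 and klf1 16.2 there. Of the 14-member sum, klf4 took 1.27% in sperm, 2.29% in egg, 22.0% in 1k-cell embryos and 52.8% at germ ring. The klf11a share was 16.2%, 47.1%, 19.1% and 1.27% in the same order, and the klf2a share 40.2%, 11.2%, 7.63% and 11.4%.

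Marker genes of other cells were also read in these libraries. Of all gene names, 86.5% reached 10 in sperm, 67.7% in egg, 71.1% in 1k-cell embryos and 73.4% at germ ring. The 10 measured vascular endothelium markers summed to 1696 in sperm, 341 in egg, 169 in 1k-cell embryos and 103.96 at germ ring. At germ ring etv2, egfl7, flt1 and fli1b were at 0, and kdrl and fli1a were below 10. The tie2, cldn5b, cdh5 and kdr genes had 46.7, 19.6, 18.1 and 10.5 there. Of the 10 markers, 9 reached 10 in sperm, 6 in egg and 4 in each embryo library. The 8 red blood cell markers summed to 84117 in sperm, 125 in egg, 86.5 in 1k-cell embryos and 303 at germ ring, with gata1a at 0 in the last 3. In sperm ba1 and ba2 each had 23288, and their values were equal in every library. Whether both names count the same reads was not tested. All 8 markers reached 10 in sperm, 2 in egg, 2 in 1k-cell embryos and 4 at germ ring. The 12 testis somatic markers summed to 20521 in sperm and 2929 in egg, with 12 and 4 of them at 10 or more. Of the egg sum cyp17a1 alone made up 2709. The star, amh and wt1a genes were at 0 in egg and in both embryo libraries. The 16 epidermis markers summed to 17336, 133089, 735 and 157475 in library order, and 16, 13, 7 and 13 of them reached 10. In egg krt5 alone made up 109093, and lamb4 and col17a1a were at 0. At germ ring krt8 had 66146, krt4 60446 and krt5 25968. From egg to germ ring 5 of the 16 were at least 2-fold higher and 11 lower, beside 48.1% and 19.8% of all genes. The part of such cells in the sperm values of klf2a, klf9 and klf13, and in the egg values of klf2a, klf2b and klf4a, was not tested. Nor was the part of oocyte transcripts in the sperm values, where the 14 markers summed to 304867 beside 575403 in egg, 142382 in 1k-cell embryos and 46972 at germ ring, with figla at 0 throughout.

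RefSeq gives a KLF name to 5 further rows of the tables that do not match the naming rule. They were picked by this match after the tables were read. The klf6a gene, listed as copeb and needed for endoderm organ growth in zebrafish, had 1295 in sperm, 524 in egg, 2067 in 1k-cell embryos and 1079 at germ ring. The klf8 gene, listed under a clone name, had 238, 363, 1938 and 1392. The klf1 gene, listed as klfd and known from red blood cells, had 108, no read, 16.2 and 10.5. The klf5l gene, also called klf18 and listed under a clone name, had 36.8, 216, 283 and 212, and a gene once named klf14 or klf16 had 1198, 502, 2842 and 2089.7. None of the 5 differed by 2-fold between the 1k-cell and germ ring stages under any of the 4 scalings, where 50.1% of all genes did as deposited, and 4 of them were at least 2-fold higher at the 1k-cell stage than in egg as deposited, beside 54.7% of all genes; copeb was within 2-fold there by upper-quartile or median-of-ratios scaling.

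The Sp genes encode the closest relatives of KLF proteins. From 1k-cell to germ ring 3 of 10 were at least 2-fold higher and 3 lower, beside 16.0% and 34.2% of all genes, and their median log2 ratio was -0.49, or 0.02 after median-of-ratios scaling. The highest were sp5l, at 1927 against 4 reads, and sp5, at 946 against 3 reads, of which sp5l is a target of Wnt signalling in zebrafish mesoderm. The sp5 ratio was 332 [113 to 1613]. The lowest were sp8a, at 3.01 against 23.8, and sp4, 3.56-fold lower. The sp8a value at germ ring was below that of 3 reads.

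Among 12 corepressor, acetylase and ubiquitin ligase genes that act with KLF proteins in mammals, none was at least 2-fold higher at germ ring than at the 1k-cell stage and 6 were lower, beside 16.0% and 34.2% of all genes, with a median log2 ratio of -0.94 beside -0.43 for all genes. Under median-of-ratios scaling 1 was higher and 3 lower. The genes ctbp1 and sin3b, named here as the partners described above and after their values were seen, encode a CtBP and a Sin3 protein. The ctbp1 gene had 6268 in sperm, 11847 in egg, 22246 in 1k-cell embryos and 20157 at germ ring. The sin3b gene had 2463, 885, 9932 and 5749 in that order. The other Sin3 and CtBP genes measured were lower at germ ring than at the 1k-cell stage. The sin3aa gene had 1632 against 4587, ctbp2 2506 against 4065 and ctbp2l 13.6 against 39.0. The acetylase genes kat2b and crebbpa were lowest by ratio, 6.97-fold and 6.55-fold lower at germ ring, and the highest by ratio were the deacetylase gene hdac1 and the Sin3 complex gene sap30l, both within 2-fold.

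Enveloping layer genes, in whose tissue klf2a, klf2b and klf17 act, were mostly higher at germ ring than at the 1k-cell stage: 12 of 13 measured were at least 2-fold higher, beside 16.0% of all genes, with a median log2 ratio of 8.28. The keratin gene krt18 had 54807 against 4 reads and the claudin gene cldne 25974 against 2 reads. The tfap2a gene, an ectoderm regulator, was 21.7-fold higher. In egg this list summed to 151300 normalized counts, of which krt5 alone made up 109093. Epidermis markers, which share krt4, krt5, krt8 and cyt1 with it, summed to 133089 there with krt5 included. Of the hatching gland genes, the hatching enzyme genes he1a, he1b and he2 were at 0 at germ ring. Of 4 genes at 10 or more, cd63 was 5.65-fold and xbp1 2.35-fold higher, tfe3a was 5.40-fold lower than at the 1k-cell stage, and prdm1a was within 2-fold. Of the primitive red blood cell genes, 2 of 5 were at least 2-fold higher at germ ring, lmo2 at 414 against 3 reads and alas2 at 16.6 against 4 reads, and slc4a1a and sptb were within 2-fold, while gata1a had no read in egg or in either embryo library. Median-of-ratios scaling gave 3 of 5 higher here and 3 of 4 among the hatching gland genes.

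Likeness of profile was measured as the Euclidean distance between log2 profiles over the 4 libraries, after each profile's mean was subtracted, among 10197 genes. With 4 points per gene and 1 library per stage this is a description. The closest to klf4 were her5, gpc4 and zgc:100951, at distances of 0.68, 1.16 and 1.16. The closest to klf2b were zgc:113006, dlb and eef2a.1, at 0.53, 0.60 and 0.60. The closest to klf2a were tnfrsf21, rpl4 and btg1, at 0.27, 0.28 and 0.40. The her5 gene had 5.96 in sperm, 11.9 in egg, 103 in 1k-cell embryos and 1454 at germ ring.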

How the data were processed

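The authors deposited, per the file headers, 1 table per RNA library with a signal per gene: the read count scaled by the TMM method. Zv9 (danRer7) is the build, and BWA 0.6.1-r104 and edgeR are tools, per the submitters' processing notes. How reads were counted, on which annotation and with which strand setting was not given in the sources used here. All values (100%) were whole multiples of 1 step per library within 0.01 reads, so read counts were recovered. With 1 library per group no count test was run.

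Computed here (Python 3.11.15, scipy 1.17.1) were log2 ratios of the value plus 1. They were kept where either library reached 10, with a mark at 2-fold. Poisson intervals of values and Clopper-Pearson intervals of ratios were exact. Where a library had no read, a fold was also taken against the value of 3 reads. The ratio procedure was tested on simulated data with counting error only, where the changed genes had high counts. That test does not cover members with few reads or differences in scaling. Of 14244 names, 718 had several rows and the row with the highest sum was used. Names were matched to RefSeq (GRCz12tu) for symbols only. The hMeDIP regions are on Zv9 without gene positions there and were not analysed here, nor were the 9 bisulfite samples and 1 TAB sample. The lists were Sp genes, KLF genes under other names, corepressors and ligases, enveloping layer, hatching gland, primitive red blood cells, pluripotency-type factors, and markers of sperm and testis, egg, red blood cells, testis somatic cells, epidermis, follicle cells, muscle and endothelium. Members and lists were chosen with earlier results of these data known. All members were named, with the 2 highest and 2 lowest genes of each list in a comparison described (1 gene is not reported here), and the 3 nearest profiles for the 3 members highest at germ ring. Alternatives were pseudocounts of 0.1 and 5, no floor or 50, a 4-fold mark, 3 other scalings, detection at 5 or 50, and summed rows.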

Additional observations from a re-analysis of the deposited data

How the results depend on the processing

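No paired analysis was possible because each group has 1 library. Of 88 recomputed counts of members, 78 were within 1.5 times the reported count. Both counts for germ ring against 1k-cell stayed so under all alternatives. In egg against sperm, the members higher in egg numbered 0 with a 4-fold mark, 5 with median-of-ratios and 4 with upper-quartile scaling. At the 1k-cell stage against egg, the lower members numbered 1 with a floor of 50, 1 with a 4-fold mark, and 6 under both median-of-ratios and upper-quartile scaling. In germ ring against egg, 5 were lower under both of these scalings. With detection at 50, egg held 7 members. Of 318 single-gene ratios recomputed, 14 changed sign, all by scaling, and in 3 of these the deposited ratio had passed 2-fold: klf7b in egg against sperm (log2 ratio 0.013 under median-of-ratios scaling) and klf3 at the 1k-cell stage against egg (-0.21 with median-of-ratios and -0.27 with upper-quartile scaling). The other sign changes were in klf2b, klf3 and klf4a for egg against sperm, klf11b for germ ring against 1k-cell and klf9 for germ ring against egg. Apart from the 3, 240 ratios stayed within their counting interval and 75 left it. Scalings differ in the factor for egg and in those for other libraries. Median-of-ratios scaling moved the all-gene median log2 ratio of germ ring to 1k-cell, without egg, by 0.52. The cause of these differences was not tested. Summed rows could give no other values, since no member has several rows. They are included in the 78 counts and 240 ratios that stayed. Depth limits klf13, klf12b, klf7a and klf4a, which had 0 to 4 reads in at least 1 library.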

Other observations

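Of 15 measured pluripotency-type factor genes, 7 of the 13 compared were at least 2-fold higher at the 1k-cell stage than in egg and none lower, beside 54.7% and 12.5% of all genes; median-of-ratios scaling gave 3 higher and 4 lower. From 1k-cell to germ ring 6 were higher and 5 lower, beside 16.0% and 34.2% of all genes, or 7 and 2 with median-of-ratios scaling; foxd3, a neural crest and pluripotency regulator, was 175-fold and sox11a 105-fold higher, while the maternal factors sox19b and eomesa were 7.17-fold and 6.64-fold lower.

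The remaining marker lists are given as summed normalized counts in sperm, egg, 1k-cell and germ ring. The 12 sperm and testis genes summed to 113664, 345, 609 and 405. The 12 testis somatic genes summed to 20521, 2929, 7379 and 5535, of which cyp17a1 alone made up 3679, 2709, 5533 and 2233. Larger parts were insl3 in sperm, at 9689, and hsd3b1 at germ ring, at 3036. The 14 skeletal muscle genes summed to 1931, 49.6, 133 and 119. The 10 follicle cell genes summed to 6134, 13990.2, 4475 and 3553, of which cyp11a1 alone made up 3837, 13986, 4459 and 3541; 8 of the 10 were at 0 in egg.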
